A study of Mus musculus with 6 samples.

Results

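The clustered protocadherins of mouse chromosome 18 were followed through 6 RNA-seq libraries of Py2T cells, an epithelial breast cancer line derived from a mouse mammary tumour. All rows of the deposited table whose Entrez identifier maps to a mouse symbol beginning with Pcdha, Pcdhb or Pcdhg were taken, which gave 58 rows of 24454. They comprise 14 alpha, 22 beta and 22 gamma rows. The family was chosen by its CPM values and calls in these same 6 libraries, so calls on its rows are given as a description and nothing is read from their number. The PBS group is the control, labelled PBS with 0 µM H2O2 and described as untreated in the protocol, the C40 group received 40 µM H2O2 each day for 4 months, and the I60 group received 60 µM H2O2 each day for 4 months. All 3 groups are the same parental line, and each holds 2 libraries, called replicates 1 and 2. The labels call them biological duplicates without saying whether the replicates were kept and treated apart, so the p-values measure only the spread between these libraries.

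Clustered protocadherins are single-pass cadherins of the cell surface that bind the same isoform on a neighbouring cell. In neurons each cell switches on a small set of them, which lets its branches recognise each other. In the alpha and gamma clusters every gene has its own large first exon, with its own promoter, that codes for the extracellular domains and the membrane span. That exon is spliced to a set of constant exons at the end of the cluster, which all members of the cluster share and which code for the common cytoplasmic part. Beta genes have 1 exon each and no constant exons. The last genes of the alpha and gamma clusters, the C-types Pcdhac1, Pcdhac2, Pcdhgc3, Pcdhgc4 and Pcdhgc5, differ from the others in sequence and regulation. Outside the nervous system the clusters are mostly silent, with Pcdhgc3 known to be widely expressed, also in epithelia.

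On the RefSeq annotation of GRCm38, the alpha cluster spans positions 36930285 to 37188897 of chromosome 18, the beta cluster 37264998 to 37521419 and the gamma cluster 37661775 to 37841873. The whole stretch covers 912 kb. In the GENCODE annotation of the same build the gamma rows share 3 constant exons of 59, 89 and 1971 bp, and the last of them holds the 3′ untranslated region. The alpha rows share 3 constant exons of 59, 89 and 2712 bp.

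The deposited values are CPM (a row's reads scaled to the same total in every library), from which whole reads were recovered for 100% of values within 0.01 of a read. Library totals were 48113692 to 60260520 reads, so that 1 read was worth 0.0166 to 0.0208 CPM. Of 11 epithelial markers 10 were tested. Of these, 7 were called lower in C40 (9.02% of all rows tested) and 8 in I60 (13.1%) than in PBS, where the list's summed level was 7352 and 8137 CPM. Among them, Cdh1 (E-cadherin) was at 529 and 537 CPM in PBS, 59.7 and 87.8 in C40, and 0.187 and 0.129 in I60. The keratin genes Krt8 and Krt18 were at 1059 CPM or more in all 6 libraries and were called in neither treated group, and Krt19 was under 1 CPM throughout. Summed over 10 mesenchymal markers, the level was 1173 to 1751 CPM in PBS, 8771 to 13240 in C40 and 5292 to 7117 in I60. The C40 replicates differed more than those of the other groups, with 1022 of the 11524 rows tested more than 2-fold apart, against 223 in PBS and 217 in I60.

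The gamma cluster was the only one of the 3 with rows above 1 CPM, and its deposited rows were almost copies of one another. In PBS replicate 1, 21 of the 22 gamma rows held between 5774 and 5846 reads. The same 21 rows held 6070 to 6128 reads in PBS replicate 2, 5034 to 5067 and 3300 to 3315 in the C40 libraries, and 1646 to 1655 and 1438 to 1456 in the I60 libraries. The highest of these rows was therefore at most 1.25% above the lowest in any library. The 3 read-through gene models of the region, Gm37013, Gm38666 and Gm38667, held exactly 5774, 6072, 5034, 3300, 1646 and 1438 reads in the same order, identical to each other in every library. Those reads were taken as the reads on the constant exons that the gamma rows have in common. In PBS replicate 2 the row of Pcdhga9 held 2 reads fewer than this number, and in all other cases each gamma row held at least as many. The 21 rows are thus 1 measurement repeated, not 21 genes that moved together, and only reads above this shared number tell one gamma gene from another.

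**Figure D1:**
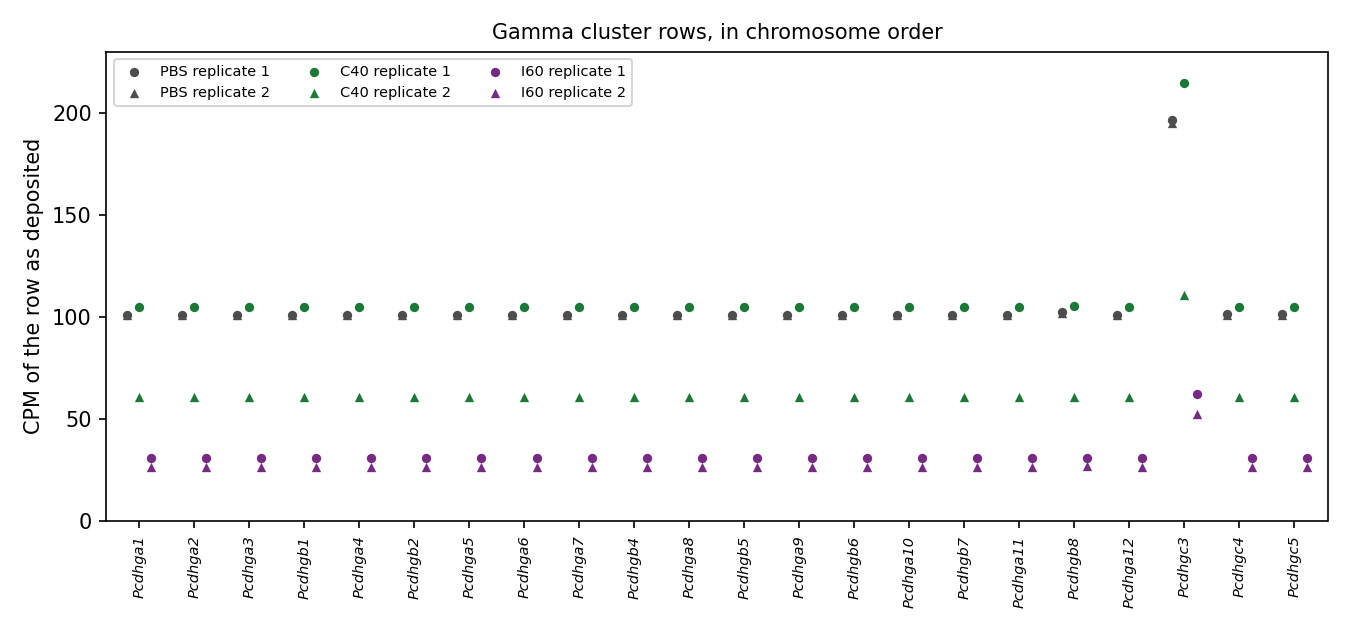
CPM of each of the 22 gamma rows as deposited (y axis), in chromosome order (x axis), with 1 point per library: colour gives the group and shape the replicate. Each library forms a flat line over 21 rows, at about 101 CPM in PBS and about 31 and 26 CPM in I60, with Pcdhgc3 at 1.82 to 2.05 times that level.

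Reads on the shared gamma exons were lower in I60 than in the controls. They stood at 101 and 101 CPM in PBS, 105 and 60.7 in C40, and 30.8 and 26.5 in I60. Means were 101 ± 0.202 in PBS, 82.7 ± 31.1 in C40 and 28.7 ± 3.06 in I60 (SD, n = 2 each). Both I60 libraries lay below all 4 others, whereas the C40 libraries fell on either side of the controls. In libraries of a cell culture, fewer cells expressing a gene and less RNA per cell cannot be told apart.

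The row for Pcdhgc3, a C-type gene, stood apart in every library. It held 11215 and 11757 reads in PBS, 10320 and 6016 in C40, and 3328 and 2849 in I60, which is 196, 195, 214, 111, 62.3 and 52.5 CPM. Less the shared reads, 5441 and 5685 reads were its own in PBS, 5286 and 2716 in C40, and 1682 and 1411 in I60. Pcdhgc3 held 95.5% to 98.1% of all gamma reads that could be given to 1 gene. Its own level averaged 94.8 ± 0.622 CPM for the controls, 79.9 ± 42.4 for C40 and 28.7 ± 3.89 for I60 (SD, n = 2 each), and the order of the libraries was that of the shared exons.

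Per length, the first exon of Pcdhgc3, of 2568 bp, and the 2119 bp of shared exons carried similar read densities. The first exon had 37.1 and 36.7 CPM per kb in PBS, where the shared exons had 47.7 and 47.6. In C40 the first exon had 42.8 and 19.5 CPM per kb and the shared exons 49.4 and 28.7, and in I60 12.3 and 10.1 against 14.5 and 12.5. The density on the first exon was 67.9% to 86.6% of that on the shared exons. Both extremes were C40 libraries, with 86.6% in replicate 1 and 67.9% in replicate 2.

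All 22 gamma rows and none of the alpha or beta rows passed the filter of at least 1 CPM in at least 2 libraries, so only gamma rows entered the test, limma on log2(CPM + 0.5) with Benjamini-Hochberg adjustment over 11524 rows. Between I60 and PBS all 22 were called lower at an adjusted p below 0.05, by 3.4- to 3.5-fold. In that comparison 13.1% of all rows tested were called lower. Pcdhgc3 had a log2 change of -1.77 ± 0.30 (SE; adjusted p = 0.0053), and the 21 rows that repeat the shared exons -1.81 to -1.80 (adjusted p = 0.0029 each). For the own reads of Pcdhgc3 alone it was -1.71 (adjusted p = 0.012). The median over all rows tested was -0.0022. Both I60 libraries were below both PBS libraries for all 22 rows, as for 28.9% of all rows with a read. The call on Pcdhgc3 was lost without I60 replicate 2 (adjusted p = 0.057) or without PBS replicate 1 (adjusted p = 0.051).

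Between C40 and PBS no gamma row was called. The change was -0.34 ± 0.30 (SE) for Pcdhgc3 (adjusted p = 0.45) and -0.35 to -0.33 for the other 21 rows, in a comparison where 9.02% of all rows were called lower and 11.2% higher. No gamma row had an unadjusted p below 0.05 with limma, and edgeR and DESeq2 called 0 as well. The value rests on which C40 library is used. Without C40 replicate 1, all 22 rows were called lower (Pcdhgc3 -0.82, adjusted p = 0.018, with the 1 remaining C40 library assumed to vary like those of PBS and I60), and without C40 replicate 2 the difference turned to 0.13 for Pcdhgc3 and 0.05 to 0.06 for the others, none called. C40 replicate 2 was 0.95 lower than replicate 1 for Pcdhgc3 on the log2 scale, where the replicates of PBS differed by 0.0086 and those of I60 by 0.25.

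The direct comparison of both treated groups gave I60 lower than C40 for all 22 rows, by 2.68- to 2.77-fold, in a comparison where 5.73% of all rows were called lower. Pcdhgc3 changed by -1.42 ± 0.30 (SE; adjusted p = 0.029) and the other 21 rows by -1.47 to -1.46 (adjusted p = 0.017 each). The row of Pcdhgc3 includes the shared reads, and for its own reads alone the change was -1.36 and not called (adjusted p = 0.062), nor was the row called with no filter on low values (adjusted p = 0.073). All 22 calls were lost when any 1 of the PBS or I60 libraries was left out or when only the C40 and I60 libraries were fitted (0 of 22 called in each case), though the direction stayed. All 3 comparisons share libraries, so they are not independent of each other.

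Reads that belong to 1 gamma gene other than Pcdhgc3 were few. Over the 21 rows together they came to 138 and 112 reads in PBS, 134 and 96 in C40, and 32 and 67 in I60, or 2.14 ± 0.393 CPM, 2.28 ± 0.72 CPM and 0.917 ± 0.449 CPM (SD, n = 2 each). In PBS and I60, but not in C40, most of the 21 rows had under 3 such reads over the group: at least 3 were found for 9 of all 22 gamma rows in PBS, 15 in C40 and 10 in I60, Pcdhgc3 included. A floor of 3 reads over a group corresponds to 0.0256, 0.0293 and 0.0279 CPM for PBS, C40 and I60. Intervals and floors of this kind cover counting error only, since reads without molecular identifiers are not independent molecules.

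The largest of these small signals came from Pcdhgb8, annotated as a pseudogene of the cluster, with 72 and 56 reads above the shared number in PBS, 33 and 15 in C40, and 9 and 18 in I60. All 4 treated libraries were below both controls. In RefSeq the gene ends at 37840489, inside the last constant exon. The annotation used for counting is not stated, so the shared number to take off this row is uncertain. The C-type gene Pcdhgc4 had 24 and 19 reads above the shared number in PBS, 5 and 3 in C40, and 1 and 3 in I60. Its treated and control libraries did not overlap either. For the C-type gene Pcdhgc5 the reads were 16 and 9 in PBS, 8 and 8 in C40, and 4 and 7 in I60. Its C40 and PBS values differed by less than the spread between the control libraries (0.280 and 0.149 CPM in PBS, 0.166 and 0.147 in C40), while both I60 values, 0.0749 and 0.129 CPM, were lower than both controls. Per kb of its own exon, Pcdhgc4 reached 0.127 ± 0.0255 CPM and Pcdhgc5 0.0819 ± 0.0352 CPM in PBS, where Pcdhgc3 had 36.9 ± 0.242 (SD, n = 2 each).

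Several gamma A and B genes went the other way in C40. Pcdhga7 had 1 and 0 reads of its own in PBS, 16 and 6 in C40, and 0 and 0 in I60. Pcdhga6 had 2 and 0 in PBS, 8 and 12 in C40, and 0 and 3 in I60. Pcdhgb2 had 0 and 2 in PBS, 7 and 7 in C40, and 4 and 11 in I60, the only one of the 22 with both I60 libraries above both controls. Reads above the shared number were higher in both C40 libraries than in both controls for 8 of 22 rows (Pcdhga1, Pcdhgb1, Pcdhga4, Pcdhgb2, Pcdhga6, Pcdhga7, Pcdhgb4 and Pcdhgb6) and lower for 3 (Pcdhga5, Pcdhgb8 and Pcdhgc4). Among all rows with a read that stayed under 1 CPM in every library, 17.8% were higher and 16.1% lower in that sense. Between I60 and PBS, 1 row was higher and 6 were lower, Pcdhgc3 among them, where the shares of such rows were 22% and 16.2%. These genes were named after their values were seen, and with so few reads no test was made of any of them alone.

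Where in the cluster these reads fell also differed. The first 10 gamma genes, from Pcdhga1 to Pcdhgb4, held 7 and 8 reads of their own in PBS, 52 and 43 in C40, and 6 and 22 in I60, so that only 1 I60 library was above the controls. The next 9, from Pcdhga8 to Pcdhga12 with Pcdhgb8 among them, held 167 over both PBS libraries, 111 over C40 and 56 over I60. Pcdhgc4 and Pcdhgc5 together held 68, 24 and 15. In C40 the first stretch had thus more reads than in PBS, while the last had fewer. This division was chosen after the values were seen and was not tested.

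**Figure D2:**
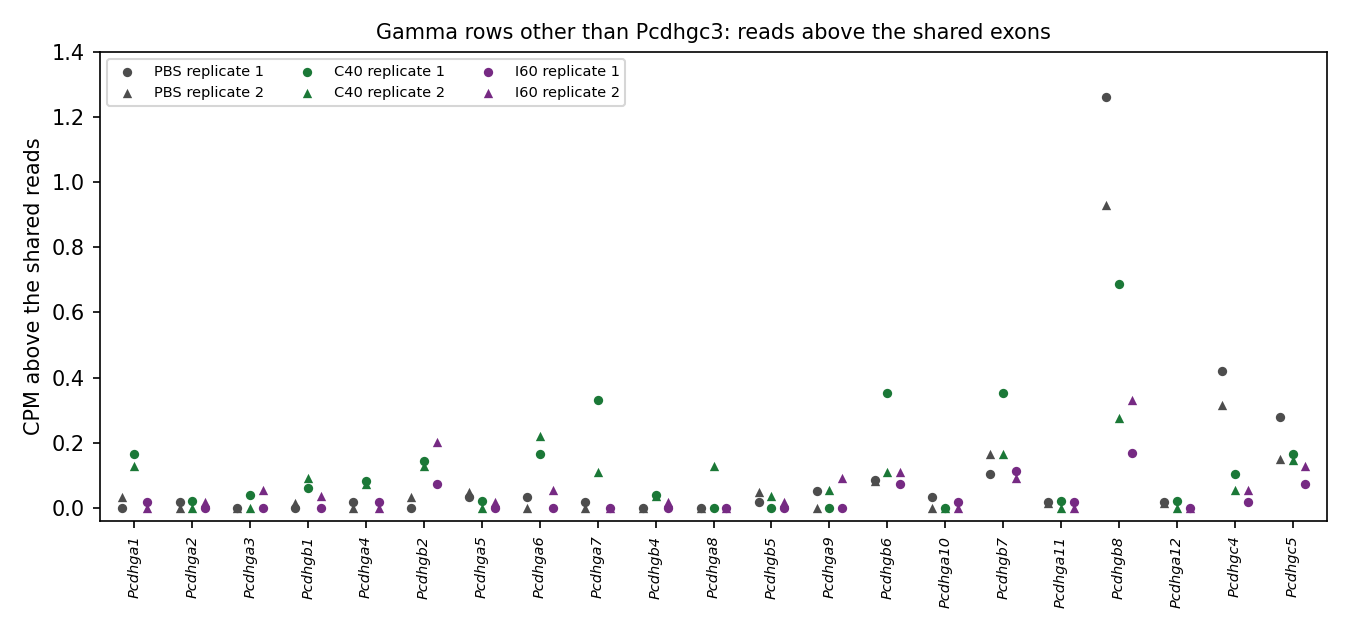
Reads above the shared number for the 21 gamma rows other than Pcdhgc3, as CPM (y axis), in chromosome order (x axis); colour gives the group and shape the replicate. Pcdhgb8 is highest, at 1.26 and 0.929 CPM in PBS, and the C40 points of Pcdhga6 and Pcdhga7 lie above those of PBS and I60.

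The beta genes were low in all libraries, and their sum was higher in both treated groups than in the controls. The summed level was 0.298 and 0.415 CPM in PBS (17 and 25 reads), 3.93 and 3.09 CPM in C40 (189 and 168 reads), and 1.07 and 1.53 CPM in I60 (57 and 83 reads). The 3 groups did not overlap. On pooled reads C40 was 9.74 times PBS (95% counting interval 7.06 to 13.75), I60 was 3.63 times PBS (2.56 to 5.26), and C40 was 2.68 times I60 (2.20 to 3.28). The range over leaving out each library was 8.40 to 11.7 for C40 against PBS and 2.98 to 4.37 for I60 against PBS. With 2 libraries a side, an exact two-sided permutation test of such a sum cannot go below p = 0.333, so none is reported.

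Pcdhb17 was the beta gene with the most reads over both C40 libraries together, 35 and 42, against 3 and 6 in PBS and 10 and 11 in I60. On pooled reads its C40 level was 9.80 times that of PBS (interval 4.90 to 22.2) and its I60 level 2.54 times (1.12 to 6.31). Pcdhb22, the last gene of the cluster, had 1 and 5 reads in PBS, 36 and 26 in C40, and 15 and 23 in I60. It was 11.8 times PBS in C40 (5.14 to 33.5) and 6.91 times in I60 (2.90 to 19.99), and leaving out PBS replicate 2 made these ratios 34.6 and 20.2, leaving out PBS replicate 1 7.29 and 4.25. For both genes the groups did not overlap, and I60 lay between PBS and C40.

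Pcdhb21, next to Pcdhb22, had 1 and 0 reads in PBS, 16 and 14 in C40, and 8 and 14 in I60, so that the treated groups met at 14 reads but both lay above the controls. Its ratio to the single control read was 34.4 in C40 (counting interval 5.71 to 1402) and 24.0 in I60 (3.88 to 989.9), and without PBS replicate 2, which had no read, 16.7 and 11.7. Pcdhb16 had 1 and 3 reads in PBS, 29 and 17 in C40, and 3 and 8 in I60. It was 13.2 times PBS in C40 (4.81 to 50.4) and 2.998 times in I60 (0.889 to 12.9). These became 25.7 and 5.84 when PBS replicate 2 was left out and 9.02 and 2.05 when PBS replicate 1 was, and the I60 ratio was 1.65 when I60 replicate 2 was left out. Pcdhb12 had no read in the 4 PBS and I60 libraries and 5 and 6 reads in C40, which is at least 4.201-fold higher than the 3-read floor of PBS and at least 3.853-fold higher than that of I60, floors taken over both libraries of the group. With the counting error of the 11 reads included, the interval of the ratio begins at 2.88 and 2.64.

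Per kb, the order in C40 was Pcdhb17 with 0.229 ± 0.0098 CPM, Pcdhb22 with 0.2 ± 0.0622, Pcdhb21 with 0.109 ± 0.0196, Pcdhb16 with 0.0868 ± 0.0389 and Pcdhb20 with 0.0658 ± 0.0065 (SD, n = 2 each). Pcdhb17 and Pcdhb22 did not differ beyond the spread of Pcdhb22, and Pcdhb16 did not differ from Pcdhb21 or Pcdhb20 beyond its own. In I60 the order was Pcdhb22 with 0.115 ± 0.0329, Pcdhb21 with 0.0752 ± 0.0282 and Pcdhb17 with 0.0596 ± 0.0033, where the last 2 did not differ beyond the spread of Pcdhb21. In PBS the highest were Pcdhb17 with 0.0233 ± 0.0102 and Pcdhb22 with 0.0164 ± 0.0151, again within their spread. Even the highest beta level is far below the 31.1 ± 16.5 CPM per kb of the first exon of Pcdhgc3 in C40.

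Of the 22 beta genes, 17 had more CPM in both C40 libraries than in both controls and 0 had less, where 26.8% of all rows with a read, and 17.8% of those under 1 CPM throughout, were higher in that sense. In I60, 10 were higher than in both controls and 0 lower, against 31.2% of rows with a read and 22% of low rows. Between the treated groups 12 were lower in both I60 libraries and 0 higher, against 20.7% and 12.7%. At least 3 reads over the group were found for 7 beta genes in PBS, 18 in C40 and 10 in I60, and at least 10 reads for 0, 11 and 5. Pcdhb1, the first gene, had no read in any library, and Pcdhb13 had 1 read in 1 PBS library. The 11 genes at the gamma side of the cluster, Pcdhb12 to Pcdhb22, held 70.6% and 72.0% of the beta reads in PBS, 82.5% and 82.1% in C40, and 77.2% and 77.1% in I60.

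Because of the 1 CPM filter no beta gene was tested in the main fit. With no filter, 17649 rows with a read were tested, and limma called 8 beta genes higher in C40 than in PBS (Pcdhb7, Pcdhb12, Pcdhb14, Pcdhb16, Pcdhb17, Pcdhb20, Pcdhb21 and Pcdhb22), where 6.97% of rows were called higher. edgeR's quasi-likelihood test on the recovered reads called 4 of them, Pcdhb16 (adjusted p = 0.017), Pcdhb17 (adjusted p = 0.0053), Pcdhb21 (adjusted p = 0.012) and Pcdhb22 (adjusted p = 0.0092), where it called 9.39% of rows higher. In I60 against PBS both tools called Pcdhb21 and Pcdhb22 only, where 9.58% and 10.3% of rows were called higher. Beta genes are close paralogs, and the handling of reads that fit several of them is not stated in the labels, so a value may hold reads of another beta gene.

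**Figure D3:**
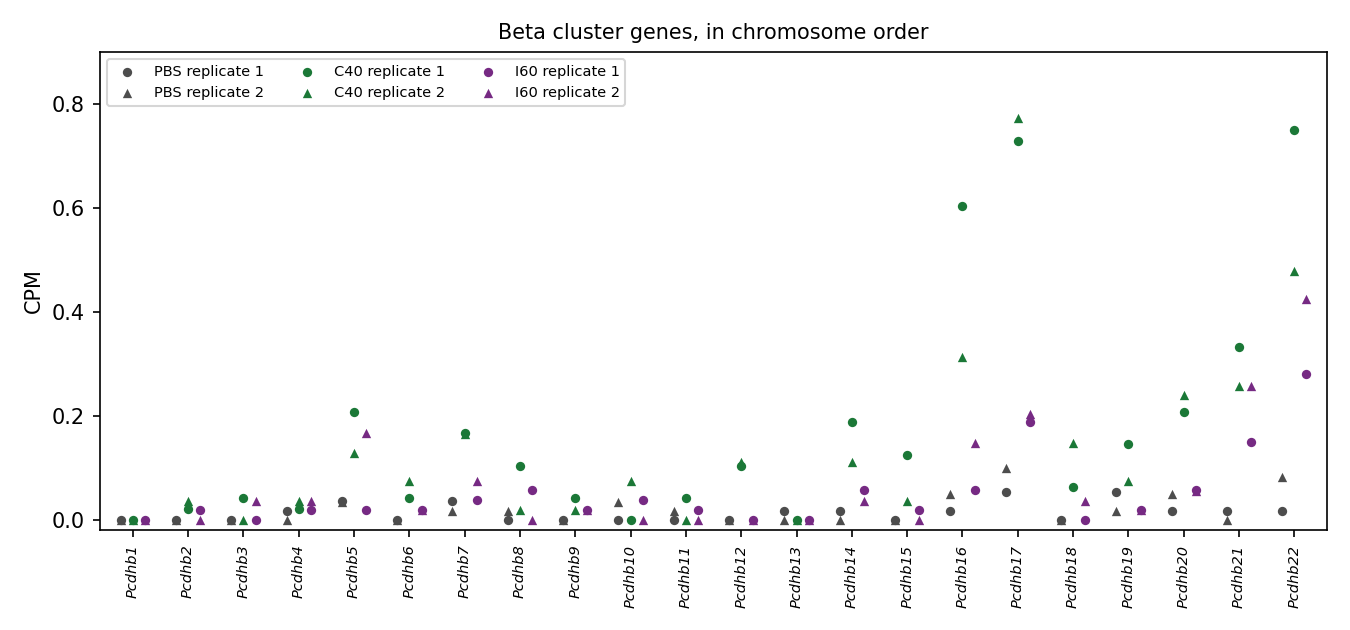
CPM of the 22 beta genes (y axis) in chromosome order (x axis), with 1 point per library; colour gives the group and shape the replicate. The C40 points rise above the others at several genes, most of them in the second part of the cluster, to 0.773 CPM for Pcdhb17, and PBS points stay at or under 0.0996 CPM.

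The alpha cluster was at the edge of detection. All 14 alpha rows, Pcdhac1 and Pcdhac2 included, held 0 and 0 reads in PBS, 2 and 1 in C40, and 0 and 0 in I60, apart from Pcdha5 with 2 reads in I60 replicate 2. The equal counts again come from shared constant exons, so the 3 reads of C40 are 3 reads in all and not 3 for each of 14 genes. Every alpha row was therefore at or below the floor of 3 reads in every group, and no difference was detectable at this depth.

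**Figure D4:**
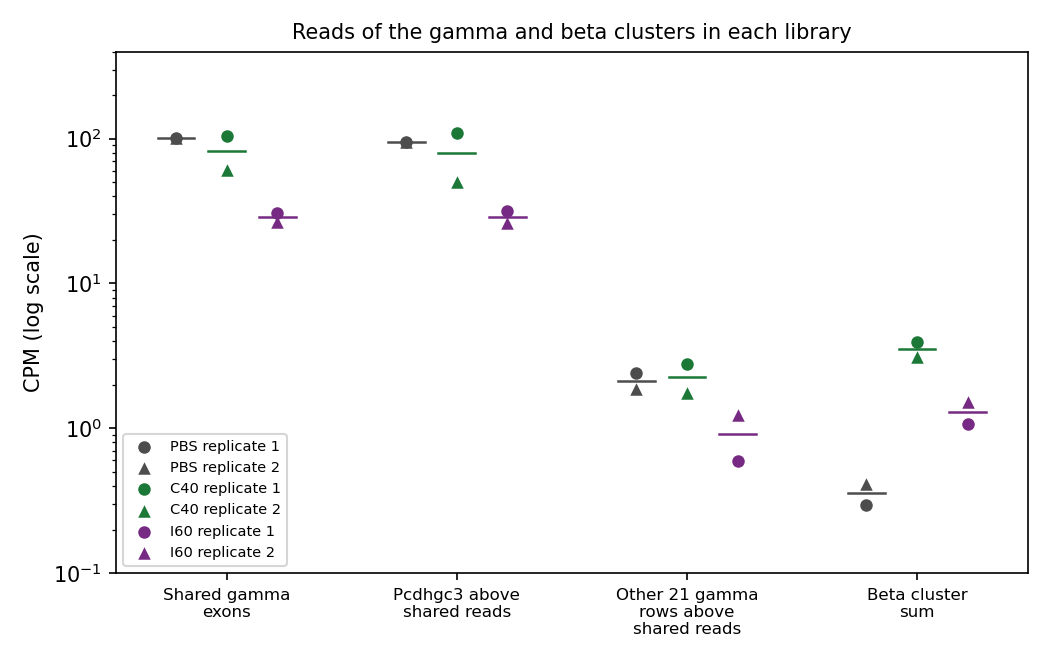
Reads of the shared gamma exons, of Pcdhgc3 above them, of the other 21 gamma rows above them and of the beta cluster summed, as CPM on a log axis; points are libraries (colour for group, shape for replicate) and short lines the mean of 2 libraries. The first 2 sets are lowest in I60 at about 26 to 32 CPM, and the beta sum is highest in C40 at 3.93 and 3.09 CPM.

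Genes around the clusters did not follow one pattern. Of 30 protein-coding genes that lie between the clusters or within 500 kb of them, 24 were tested. Against PBS, 2 were called higher and 1 lower in C40, and 1 higher and 4 lower in I60. The share of all rows called was 11.2% higher and 9.02% lower for C40, and 13.9% and 13.1% for I60. The median log2 change over the 24 was 0.17 in C40 and -0.27 in I60, beside -0.02 and -0.0022 over all rows tested. Between I60 and C40, limma called 1 higher and 3 lower (Pfdn1, Sra1 and Hdac3), against 3.51% and 5.73% of all rows. The median there was -0.45, beside 0.015 over all rows tested. In that comparison edgeR called 3 of the neighbours and DESeq2 9. Of all 11524 rows tested, edgeR called 388 higher and 696 lower, and DESeq2 605 and 1064. The limma calls on Pfdn1, Sra1 and Hdac3 between I60 and C40 were lost in 9, 6 and 5 of the other settings.

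Taf7, which codes for a subunit of the general transcription factor TFIID and lies between the beta and gamma clusters, was at 4.59 and 2.94 CPM in PBS, 1.68 and 1.55 in C40, and 1.31 and 0.995 in I60. It was lower in both treated groups, with log2 changes of -0.98 ± 0.28 in C40 (SE; adjusted p = 0.048) and -1.35 ± 0.28 in I60 (SE; adjusted p = 0.012). The C40 call was lost in 11 of the other settings and the I60 call in 3. Diaph1, a formin that nucleates actin filaments and the first gene tested beyond the gamma cluster, had 226 and 218 CPM in PBS, 195 and 191 in C40, and 133 and 133 in I60 (I60 against PBS -0.74 ± 0.14 SE, adjusted p = 0.0089; lost when any 1 PBS or I60 library was left out).

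Hdac3, a histone deacetylase of corepressor complexes, was next, with 97.8 and 104 CPM in PBS, 139 and 125 in C40, and 71.3 and 72.8 in I60. It was called lower in I60 than in C40, with a log2 change of -0.87 (adjusted p = 0.016; lost in 5 other settings). Against PBS its I60 change was -0.48 (adjusted p = 0.059), which passed the threshold in 5 other settings. Arap3, which codes for a phosphoinositide-binding signalling protein, had the largest change of the region: 0.0700 and 0.166 CPM in PBS, 0.540 and 0.699 in C40, and 16.9 and 26.9 in I60. Its limma log2 change was 5.15 ± 0.29 (SE) in I60 against PBS (adjusted p = 3.46e-05) and 4.29 ± 0.29 (SE) against C40 (adjusted p = 0.00031). Both calls held in every setting run. Arap3 reached 1 CPM only in the I60 libraries, so the filter favoured these calls and they are no support. In C40 against PBS its change was 0.86 and not called by limma (adjusted p = 0.082), but edgeR and DESeq2 called it.

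On the alpha side, the prefoldin subunit gene Pfdn1 was at 101 and 106 CPM in PBS, 84.0 and 82.0 in C40, and 53.8 and 48.9 in I60 (I60 against PBS -1.003 ± 0.16 SE, adjusted p = 0.0038, held in every setting run). Sra1, known as a steroid receptor RNA activator, had 25.7 and 25.8 CPM in PBS, 25.4 and 25.6 in C40, and 13.6 and 13.6 in I60 (-0.89 ± 0.19 SE against PBS, adjusted p = 0.015; lost in 4 other settings). Over all 24 neighbours tested, on whichever side they lie, limma called 2 higher in C40 than in PBS. They were Cd14, a lipopolysaccharide co-receptor, with a log2 change of 0.87 (adjusted p = 0.033), and Gnpda1, an enzyme of amino sugar metabolism, with 1.10 (adjusted p = 0.030). The first call was lost in 6 and the second in 4 of the other settings. In I60 the change of Cd14 was 0.72 (adjusted p = 0.05002), and it was called in 7 other settings.

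**Figure D5:**
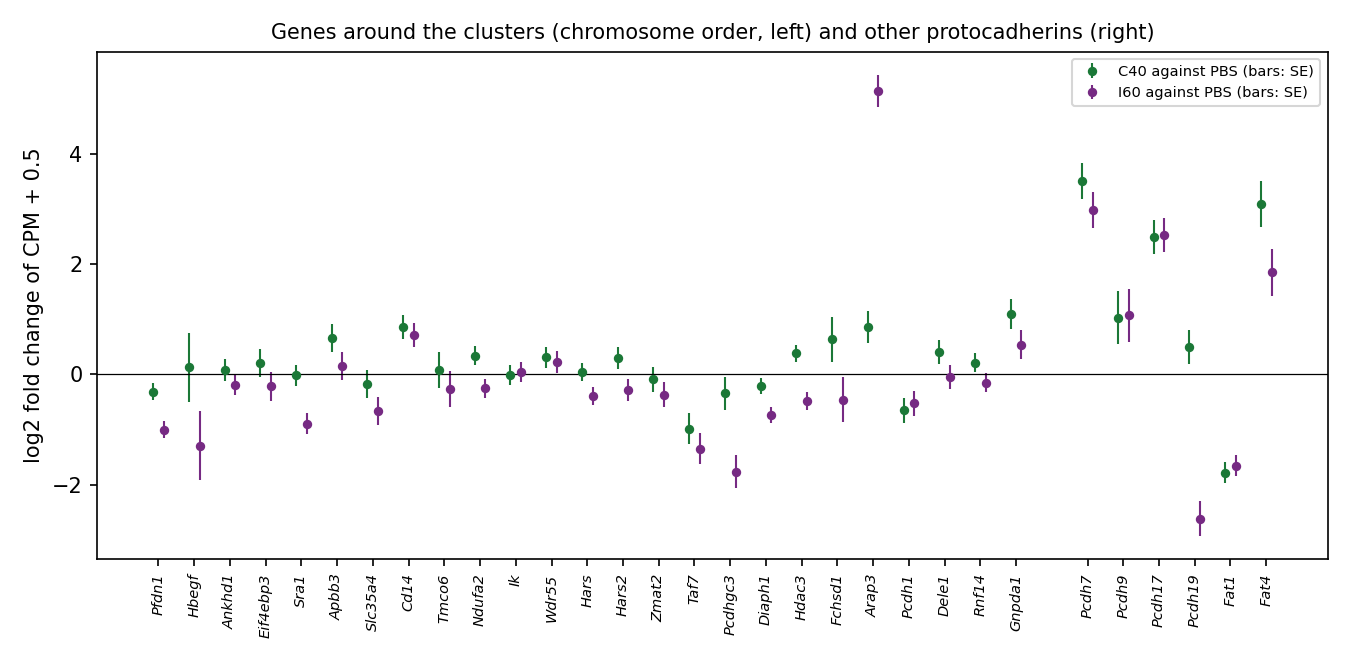
log2 fold change of CPM + 0.5 (y axis, bars are standard errors) in C40 and I60 against PBS for the 24 neighbours tested, in chromosome order with Pcdhgc3 at its place, and, after the gap, for protocadherins and FAT cadherins elsewhere in the genome. Most neighbours lie within 1 of 0, Arap3 reaches 5.15 in I60, and Pcdh7 and Pcdh17 are above 2 in both groups.

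Protocadherins outside the clusters included genes called in either direction. Of 24 listed protocadherins, cadherin-related and FAT or Dachsous cadherins, 21 had a row and 7 were tested. Of these genes, Pcdh1 and Pcdh12 lie within 500 kb of the gamma cluster and so are neighbours as well. Pcdh7, a delta protocadherin, rose from 18.2 and 13.0 CPM in PBS to 249 and 130 in C40 and 130 and 120 in I60, log2 changes of 3.51 ± 0.32 and 2.99 ± 0.32 (SE; adjusted p = 0.00054 and 0.00066). Fat4, a giant cadherin of planar polarity, rose from 1.65 and 0.83 CPM to 20.6 and 9.33 in C40 (3.09 ± 0.42 SE, adjusted p = 0.0027) and 5.04 and 6.19 in I60 (1.85 ± 0.42 SE, adjusted p = 0.017; lost in 5 other settings). Pcdh17 was at 0.245 and 0.149 CPM in PBS, 4.63 and 2.48 in C40 and 3.24 and 3.81 in I60, called higher in both groups.

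Pcdh19, a delta protocadherin of the X chromosome, had 96.0 and 61.0 CPM in PBS, 137 and 85.8 in C40, and 10.8 and 13.5 in I60, a log2 change of -2.62 ± 0.31 against PBS (SE; adjusted p = 0.0010) and -3.12 ± 0.31 against C40 (SE; adjusted p = 0.0013). The calls on Pcdh7, Pcdh17 and Pcdh19 held in every setting run. Pcdh17 reached 1 CPM only in treated libraries, so the filter favoured its calls and they are no support. Fat1 was also lower in both treated groups. In all, 3 of the 7 tested were called higher and 1 lower in C40, and 3 higher and 2 lower in I60, against PBS. The share of all rows tested was 11.2% higher and 9.02% lower in C40, and 13.9% and 13.1% in I60.

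Genes known to act in promoter choice and silencing of the clusters were listed separately. CTCF and cohesin bring the promoters to distant enhancers, and SMCHD1, DNA methyltransferases and SETDB1 keep silent promoters shut. Of 28 such genes, 27 were tested. Over all rows tested against PBS, limma called 11.2% higher and 9.02% lower in C40, and 13.9% and 13.1% in I60. Ctcf stood at 122 and 118 CPM in PBS, 121 and 102 in C40, and 119 and 104 in I60, and Smchd1 at 186 and 109, 83.1 and 71.7, and 88.0 and 99.1, neither of them called. Against PBS, 1 was called higher in C40 (Ehmt2, a histone H3 lysine methyltransferase, 0.61, adjusted p = 0.042) and 1 lower (Pds5a, a cohesin regulator, -0.93, adjusted p = 0.025). In I60, 4 were called higher and 0 lower, with Pds5a just outside the threshold (-0.71, adjusted p = 0.0504) and called lower in 10 other settings, edgeR and DESeq2 among them. The 4 were Dnmt3a, a de novo DNA methyltransferase (1.09 ± 0.22 SE, adjusted p = 0.010), Ehmt2 (0.80, adjusted p = 0.012), Trim28, a corepressor of zinc finger proteins (0.78, adjusted p = 0.033), and Wiz, a partner of the Ehmt2 complex (0.57, adjusted p = 0.048). Each of these 6 calls was lost in 3 to 10 of the other settings. Between I60 and C40 limma called 0 of the 27, with 3 at an unadjusted p below 0.05, while edgeR called 0 and DESeq2 1. There limma called 3.51% of all rows tested higher and 5.73% lower. Of the same 11524 rows, edgeR called 388 higher and 696 lower, and DESeq2 605 and 1064.

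Intracellular partners of the clustered protocadherins include the focal adhesion kinases PTK2 and PTK2B, which the alpha and gamma cytoplasmic parts bind and inhibit, the WAVE actin complex, and the proteases ADAM10 and presenilin, which cut the proteins at the membrane. Of 18 such genes, 17 were tested. In C40 limma called 0 of them against PBS, with 4 at an unadjusted p below 0.05, where edgeR called 2 and DESeq2 3. In I60, 1 was called higher and 4 lower. Limma called 11.2% of all rows tested higher and 9.02% lower in C40, and 13.9% and 13.1% in I60, against PBS. In C40 edgeR called 1351 of all 11524 rows higher and 1016 lower, and DESeq2 1815 and 1507. Ptk2b was at 31.3 and 30.8 CPM in PBS, 34.3 and 35.4 in C40, and 65.1 and 83.4 in I60 (1.23 ± 0.19 SE against PBS, adjusted p = 0.0037, held in every setting run). The 4 lower were Adam10 (-1.20, adjusted p = 0.012), Psen2 (-1.13, adjusted p = 0.038), Pdcd10 (-1.03, adjusted p = 0.028) and Brk1 (-0.49, adjusted p = 0.0495), each of them lost in 2 to 9 of the other settings. In C40 against PBS the limma changes were -0.86 for Adam10 (adjusted p = 0.051), -1.02 for Psen2 (0.064), -0.84 for Pdcd10 (0.066) and -0.21 for Brk1 (0.35). Adam10 was just outside the threshold there and was called lower with TMM scaling, edgeR and DESeq2. Between I60 and C40 limma called only Ptk2b, higher with a log2 change of 1.07 (adjusted p = 0.017). That call was lost in 5 other settings. In the same comparison limma called 3.51% of all rows tested higher and 5.73% lower.

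Markers of cell types in which the clusters are known to be active were read in the same libraries. The 12 neuronal markers summed to 39.6 and 19.9 CPM in PBS, 52.2 and 49.5 in C40, and 10.9 and 12.3 in I60, nearly all of it from Tubb3 and Map2, with Dcx and Nefm at 0 in all 6 libraries. The 10 glial markers summed to 74.4 and 78.8 CPM in PBS, 21.4 and 38.0 in C40, and 2.72 and 3.45 in I60, nearly all of it from Mbp, with Aqp4, Mog and Olig1 at 0 in all 6. Their part in the protocadherin values was not tested.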

How the data were processed

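Per the submitters' processing notes, the tools include STAR, of unstated version, with mouse build mm10. For the counting step, neither program nor annotation, strand setting or handling of reads that fit several genes is stated there. Per the labels' protocols, RNA was depleted of ribosomal RNA with a kit, but 2 kits are described without saying which library had which. The authors deposited CPM, a normalised read count scaled to 1 total in every library, per Entrez gene. The table has 0 further columns of per-sample values. Of 24454 rows, 24374 matched a symbol in RefSeq's GRCm38.p6 table, and exon lengths came from GENCODE M21.

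Whole reads were recovered from the CPM values. Rows reaching 1 CPM in 2 or more libraries entered limma-trend (limma 3.58.1, R 4.3.3) on log2(CPM + 0.5), a scale that understates changes of low rows. All 6 libraries were in 1 model with 3 residual degrees of freedom. Tests were two-sided with Benjamini-Hochberg adjustment over 11524 rows, and calls needed an adjusted p under 0.05. The procedure was tested on simulated data. Own reads of a gamma row are its reads less those of the read-through rows, at least 0. Alternatives were edgeR 4.0.16, DESeq2 1.42.0, other scalings, filters and pseudocounts, a replicate block and leaving out each library. Ratios of pooled reads have exact 95% intervals for counting error.

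The members and lists were chosen with earlier results of these data known. Named members are all those called, the C-type genes, the 2 highest of each cluster in each group, and members at 0 in 1 group with at least 1 CPM in both libraries of another, of which there were 0. For each list up to 4 called genes are named, largest change first. The fifth called gene of each list, Ctcf, Smchd1 and the gamma A and B genes with own reads were added after their values were seen.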

Additional observations from a re-analysis of the deposited data

Results flagged for a closer look

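Values of the gamma cluster stood apart between the treated groups in the direct comparison of I60 with C40. The log2 difference was -1.42 for the row of Pcdhgc3 (limma, adjusted p = 0.029) and a median of -1.46 for the other 21 gamma rows (adjusted p = 0.017 each), which repeat 1 measurement of the shared exons. The row of Pcdhgc3 holds those shared reads too, and its own reads alone gave -1.36 (adjusted p = 0.062). The cluster was chosen by values of these libraries, so this is a description. Both libraries of I60 lay below both of C40, as for 20.7% of all rows with a read. However, 0 of the 22 rows were called once any 1 PBS or I60 library was left out.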

How the results depend on the processing

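The count of 22 gamma rows lower in I60 than in PBS was unchanged under TMM and DESeq2 scaling, pseudocounts of 0.1 and 1, edgeR, DESeq2 and the replicate block, and was 21 to 22 with 1 library left out. It became 1, Pcdhgc3, when the lowest gamma row or the read-through rows were taken off, since the other rows then fell under the filter. For I60 against C40 those 2 settings gave 0, as did a fit of only these groups, and the range over leaving out 1 library was 0 to 22. For C40 against PBS that range was 0 to 22 rows lower. Its log2 change ran from -0.82 to 0.13 for Pcdhgc3 and from -0.73 to 0.052 for the median of the other 21 gamma rows, without C40 replicate 1 and without C40 replicate 2, and was thus reversed without the latter. Rows called higher in C40 were 0 with the filter, 4 with a filter at 0.2 CPM, 8 with none and 4 with edgeR and none, and in I60 2 with no filter under either tool. With the 0.2 CPM filter 1446 of all 13033 rows tested were called higher in C40. Beta genes passed that filter only through treated libraries, since none was above 0.0996 CPM in PBS. Their calls under it were thus favoured by the filter and are no support.

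The numbers of replicates are shared between groups but the labels do not say that they mark a common batch. The log2 differences of replicate 2 from replicate 1 correlated between groups at 0.15 (PBS and C40), 0.11 (PBS and I60) and 0.44 (C40 and I60), over the 11524 rows tested. With the replicate block 0, 22 and 22 gamma rows were called, as without it.

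Summed as deposited, the gamma rows gave 2317 CPM in PBS, against 2328 with TMM, 2325 with DESeq2 size factors and 198 with shared reads counted once. In C40 and I60 counting once gave 165 and 58.3, and for alpha in C40 0.030. Members with at least 10 reads in place of 3 were 0 alpha in C40, and 0 (PBS), 11 (C40) and 5 (I60) beta. In the other results that a threshold decides, among the neighbours and lists, no direction of a called change turned. Calls were lost or gained between settings, and not every such change is given beside them. The cause was not tested. Depth limits the beta, alpha and own gamma reads, where 1 read is a large part of a value.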
